A study of Homo sapiens with 4 samples.

Results

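The translation initiation and elongation factors are the proteins that bring a ribosome to an mRNA, find its start codon and carry out each step of peptide synthesis. Their mRNAs were picked by gene name from the array files, as every non-control probe whose name begins with EIF1, EIF2A, EIF2B, EIF2S, EIF3, EIF4, EIF5, EIF6 or EEF, without the EIF5A names and the EIF2AK kinases. This gave 91 probes with 55 gene names, out of 50599 probes with 36337 gene names on the array. Of these, 80 probes (52 genes) were bright enough to be tested and 11 were not. The 3 genes with no tested probe were EEF1DP3, EIF3IP1 and EIF4E1B. EIF1AY has 1 tested probe, whose own value is not reported here. It enters the counts and the medians over its group and over all members. EIF2S3, EIF3CL and EIF4EBP3 were not analysed here.

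The cells were GIST-T1, an established human line from a gastrointestinal stromal tumor (GIST), electroporated with 100 pmol of either a synthetic mimic of miR-335, made to act as the mature microRNA does, or a negative control RNA. RNA was taken after 48 h and put on 2 arrays per group. The labels do not say that these came from separate cultures, so the p-values measure the spread between arrays, which may be technical. The description label of both mimic samples also carries a name with miR-34a, while their titles and transfection labels say miR-335, and the samples are grouped here by the latter. All 4 samples are of the same line, so nothing here speaks for other GIST cells.

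In the cell, the cap-binding complex eIF4F and its helicase prepare the mRNA, eIF3, eIF1 and eIF1A hold the small ribosomal subunit ready, and eIF2 delivers the initiator tRNA. Once the start codon is met, eIF5 triggers GTP hydrolysis by eIF2, eIF5B joins the large subunit, and eIF2B recharges eIF2 for the next round. In elongation eEF1A brings each aminoacyl-tRNA and eEF2 moves the ribosome along, and many of the mRNAs for this machinery start with a pyrimidine tract through which mTOR controls their translation.

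The sequences shown are the 5p forms of the microRNAs named by the labels. Titles and transfection labels do not say 5p or 3p, so the use of 5p is an assumption. The other sequence is the single translation factor probe with letters complementary to the seed of miR-335-5p. In the microRNAs, from RefSeq (GRCh38.p14), capitals mark the seed, bases 2 to 8, and in the EIF2B5 probe, whose sequence is in the array files (hg19, chr3:183861961-183862392, plus strand, across a splice junction), they mark bases 29 to 35 of 60, the complement of that seed.
hsa-miR-335-5p: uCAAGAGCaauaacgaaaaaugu
hsa-miR-34a-5p: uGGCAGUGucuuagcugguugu
EIF2B5 probe, bases 18 to 46: tagagcatgaaGCTCTTGgtatttccatg
The letters GCTCTTG were in 1 of the tested translation factor probes and in 0.492% of all tested probes (100 probes). EIF2B5, the catalytic subunit of eIF2B, read 3.38 and 3.37 on the control arrays and 3.42 and 3.43 on the mimic arrays. Both mimic arrays were slightly above both control arrays, and the log2 change was 0.05 ± 0.04 (SE; limma adjusted p = 0.464). The seed complement of miR-34a-5p, CACTGCC, was in no translation factor probe and in 94 tested probes. Over all tested probes the median log2 change was -0.07 with the miR-335-5p letters and -0.01 without them, and -0.04 with the miR-34a-5p letters and -0.01 without them, given as a description with no test. The seed complement of miR-335-3p, ATGAAAA, was in 1 translation factor probe, an EIF2A probe that was not tested, and in 214 tested probes. The median log2 change was 0.0031 with these letters and -0.01 without them. A probe covers a small stretch of a transcript, so these counts leave most of each mRNA unsearched.

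Each array gave 40.3% to 41.9% of its probes well above background, and its 75th percentile lay between 179 and 190 intensity units. Values below are log2 processed intensity minus that percentile, so a value of 0 is the 75th percentile of the array, and values of different probes are not set against each other. All 4 arrays lay on 1 slide and came from 1 scan. All 6 GIST markers examined, KIT among them, were well above background on all 4 arrays, as were the epithelial markers EPCAM, KRT8 and KRT18, while CDH1, PTPRC, CD3E, PECAM1 and VWF were on none and CD68 was on 2.

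To examine how the mimic affected the translation machinery, the mimic arrays were compared with the control arrays by limma over all 20328 tested probes, with Benjamini-Hochberg adjustment. Most translation factor mRNAs lay close to the control level, and none passed the test. EIF5 stood highest at 1.48-fold over control, and the lowest was EEF1A2, the muscle and nerve form of eEF1A, at -0.25 on the log2 scale. At an adjusted p of 0.05, 0 of 80 translation factor probes were called, against 2.62% of all tested probes (1.15% lower and 1.47% higher). At an unadjusted p under 0.05 limma listed 5 of them, 2 lower and 3 higher, where the share over all probes was 25.3%. The methods' t-test listed 11 at that level, where the share over all probes was 20.2%, and after adjustment it called 0 probes on the whole array. The smallest limma adjusted p among them was 0.0873, that of EIF5. Scaled instead to external spike-in probes, every value shifted down by 0.19, every positive change except that of EIF5 turned negative, and limma called 54 probes lower and 1 higher, where 44.9% and 2.51% of all tested probes were called, and 74 probes were lower without overlap, against 74.7% of all. With a prior spread that followed the signal intensity (limma's trend), 3 translation factor probes each were called lower (EEF1A2, EEF1A1 and EIF4E2) and higher (EIF2B3, EIF3G and EIF5), beside 8.54% and 6.63% of all tested probes. With normexp background correction 1 was called higher, that of EIF5, beside 3.9% of all. A level is therefore relative to the array's own 75th percentile, and in a whole culture less mRNA per cell cannot be told apart from fewer cells that hold it.

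The spread between arrays was small beside a 1.5-fold change. Scaled to each array's 75th percentile, the 95% confidence interval lay within 1.5-fold in either direction for 78 of 80 translation factor probes. The share over all tested probes was 83.2%, and the exceptions among the 80 were EIF5 and the dimmer probe of EIF4ENIF1. These intervals measure the spread between arrays, which may be technical. The share under spike-in scaling, which moved all values down, is not reported here. None of the 80 differed by more than 1.5-fold between group means, against 3.9% of all. Over the 52 genes, each represented by its brightest probe, the median log2 change was -0.03, and it was -0.02 over all 15454 genes tested. The median size of the change, without its sign, was 0.05 for the translation factors and 0.10 for all genes. Replicate arrays differed by a median of 0.03 in each group for the translation factors and by 0.06 for all genes, so both the changes and the replicate error were smaller than over the array as a whole. Over all probes the spread narrowed as the signal rose and many of the members are bright, and the part of the signal level in this was not tested. In 49 of the 80 probes the groups did not overlap, 29 with the mimic lower and 20 with it higher, beside 59.7% of all tested probes (32.5% and 27.1%).

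**Figure D1:**
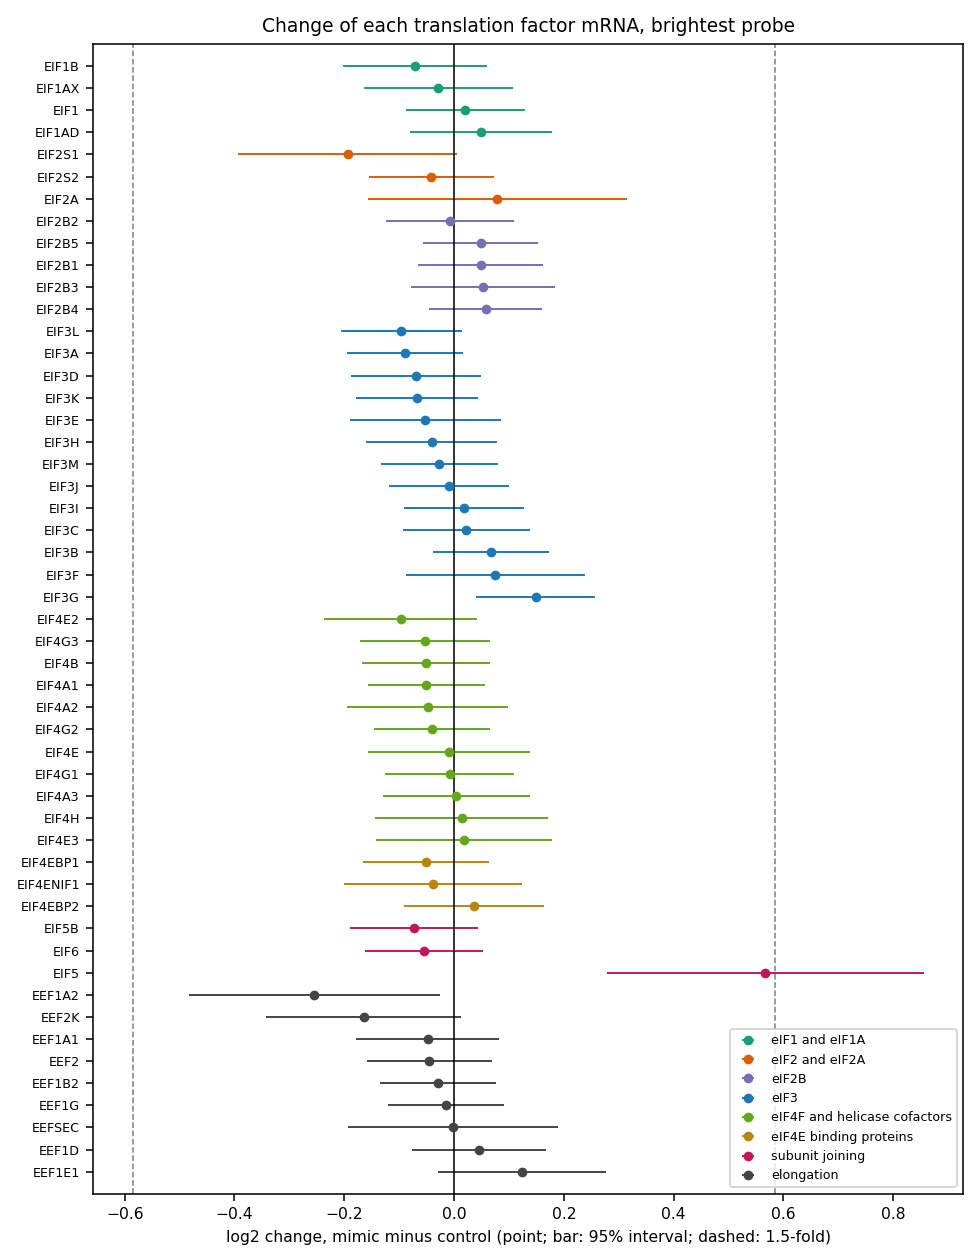
Log2 change (mimic minus control) of each tested translation factor gene except EIF1AY on its brightest probe, grouped by complex (colors), with limma's 95% confidence interval as the bar and 1.5-fold as dashed lines. The point of EIF5 sits at 0.57 while the other genes lie between -0.25 and 0.15, and no gene passed the adjusted threshold.

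The scanning factors eIF1 and eIF1A keep the small subunit open until the start codon is found. Their 5 genes, with EIF1AY among them, had a median log2 change of -0.03. EIF1 read 7.77 and 7.76 on the control arrays and 7.77 and 7.80 on the mimic arrays. The ranges overlapped, and the change was 0.02 ± 0.04 (limma adjusted p = 0.758). EIF1AX, the X-linked gene for eIF1A, had 3 tested probes with changes of -0.03, -0.03 and 0.10, none past the threshold, and a copy on the Y chromosome that is close in sequence could share its signal. The lowest of the group was EIF1B, a close relative of eIF1, which read 2.86 and 2.83 in the control and 2.74 and 2.81 with the mimic, without overlap (-0.07 ± 0.05; limma adjusted p = 0.402). EIF1AD stood highest, at 0.05 ± 0.04.

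For eIF2, the GTPase that carries the initiator tRNA, the alpha subunit showed the lower values. EIF2S1 encodes that subunit, the one phosphorylated in the integrated stress response, and read 0.74 and 0.60 in the control arrays and 0.44 and 0.51 in the mimic arrays. Both mimic arrays were below both control arrays, with a change of -0.19 ± 0.07 that did not pass (limma adjusted p = 0.205). The beta subunit gene EIF2S2 gave -0.04 ± 0.04 on its brighter probe and 0.07 ± 0.05 on the other. EIF2A, a separate protein that can bring initiator tRNA to the ribosome, read 0.19 and 0.26 in the control and 0.21 and 0.40 with the mimic. Its groups overlapped (0.08 ± 0.08; limma adjusted p = 0.585).

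In eIF2B, the exchange factor that reloads eIF2 with GTP, 4 of the 5 subunit genes were higher with the mimic and in all 4 the arrays did not overlap, against 26.8% of all tested genes that were higher without overlap, but the sizes were small, with a median of 0.05 that became -0.14 under spike-in scaling. EIF2B4, a regulatory subunit, read 2.87 and 2.86 in the control and 2.92 on both mimic arrays (0.06 ± 0.04; limma adjusted p = 0.388). The remaining gene, EIF2B2, read 4.21 and 4.16 in the control and 4.19 and 4.17 with the mimic, so its arrays overlapped (-0.01 ± 0.04). EIF2B3, which encodes the partner of EIF2B5 in the catalytic core and is named after its values were seen, had 3 probes. On the brightest its change was 0.05, on the second 0.02, and on the remaining probe, which maps far upstream of the others (chr1:45444011-45444070, minus strand), 2.40 on both control arrays stood against 2.53 and 2.57 with the mimic. That probe differed by 0.15 ± 0.04 and its limma adjusted p was 0.138, or 0.0327 when limma's prior spread followed the intensity.

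The 13 tested subunit genes of eIF3, the scaffold that binds the small subunit and recruits the mRNA, lay between -0.10 and 0.15, with a median of -0.03. EIF3G, an RNA-binding subunit, was the highest. It read 3.17 and 3.15 in the control and 3.30 and 3.31 with the mimic. The groups were well apart, at 0.15 ± 0.04, yet limma's adjusted p was 0.133 (0.0203 with the intensity-dependent prior, and -0.04 as the change under spike-in scaling). EIF3L was the lowest, with 3.86 and 3.83 in the control and 3.76 and 3.74 with the mimic (-0.10 ± 0.04; limma adjusted p = 0.236). EIF3A, the largest core subunit, read 5.61 and 5.60 in the control and 5.50 and 5.52 with the mimic. Again the mimic arrays were the lower ones, and the change of -0.09 ± 0.04 had an adjusted p of 0.246 in limma. EIF3E read 7.21 and 7.15 against 7.10 and 7.16, which overlapped (-0.05 ± 0.05). EIF3C gave 0.02 ± 0.04 and 0.07 ± 0.05 on its 2 probes, and its signal cannot be separated from that of the near-identical copy EIF3CL.

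**Figure D2:**
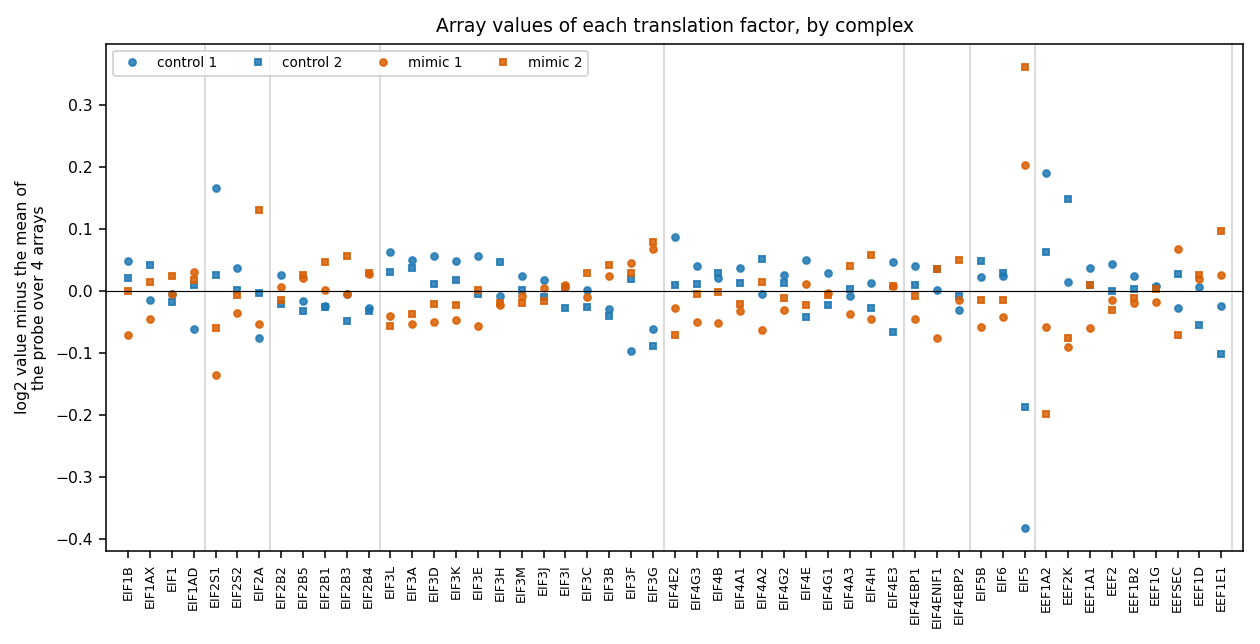
Log2 value of each tested translation factor gene except EIF1AY on its brightest probe, minus the mean of that probe over the 4 arrays, with control arrays in blue, mimic arrays in orange, circles for replicate 1 and squares for replicate 2, and grey lines between complexes. Most points lie within 0.1 of the mean, and EIF5 has both mimic arrays above 0.2 and both control arrays below -0.1.

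The cap-binding complex eIF4F with its helicase cofactors had a median of -0.04 over 11 tested genes, 8 of them negative. EIF4E, the cap-binding protein that is rate-limiting in many cells, read 3.07 and 2.97 in the control and 3.03 and 2.99 with the mimic. These overlapped, and the change was -0.01 ± 0.05 (limma adjusted p = 0.926). EIF4G1, the scaffold, differed by -0.01 ± 0.04, from 5.67 and 5.61 to 5.63 on both mimic arrays. The RNA helicase genes EIF4A1 and EIF4A2 were at -0.05 ± 0.04 and -0.05 ± 0.05, and the other 3 probes of EIF4A1 were between -0.0017 and 0.02. EIF4E2, a cap-binding relative that represses rather than promotes initiation, was the lowest gene of the group. Its brightest probe read 4.81 and 4.74 in the control and 4.70 and 4.66 with the mimic, a change of -0.10 ± 0.05. A second probe (chr2:233431864-233431923, plus strand) gave 3.99 and 3.96 against 3.85 and 3.86, and the last gave -0.08 ± 0.07. The mimic arrays were lower without overlap on the first and second probes, and the second had the smallest limma adjusted p of the 3, 0.168 (0.0299 with the intensity-dependent prior). EIF4E3 had the highest value of the group, 0.02 ± 0.06.

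The eIF4E binding proteins, which block eIF4F assembly when mTOR is inactive, showed no change that passed the test. EIF4EBP1 read 5.45 and 5.42 in the control and 5.36 and 5.40 with the mimic, apart by a narrow margin (-0.05 ± 0.04; limma adjusted p = 0.477). EIF4EBP2 gave 0.04 ± 0.04 on one probe and -0.07 ± 0.07 on the other. For EIF4ENIF1, the eIF4E transporter, named here for its wide interval, the dimmer probe read -2.49 and -2.08 on the control arrays and -2.09 and -2.23 on the mimic arrays. It was not well above background on control replicate 1, and its interval ran from -0.35 to 0.61.

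EIF5 had the largest difference of all members. It encodes the GTPase-activating protein that releases eIF2 at the start codon, and has 1 probe (hg19, chr14:103811176-103811235, plus strand). The control arrays read -1.44 and -1.24 and the mimic arrays -0.85 and -0.70. Both mimic arrays were above both control arrays, and the gap between the groups, 0.39 at its narrowest, was wider than the 0.19 between the control arrays and the 0.16 between the mimic arrays. The log2 change was 0.57 ± 0.10 (95% confidence interval 0.28 to 0.86; limma adjusted p = 0.0873). It was positive under all settings tried, from 0.33 to 0.66, and passed the threshold under 3 of them. With normexp background correction the change was 0.33 (adjusted p = 0.0247 in limma), with spike-in scaling it was 0.38 (0.0489), and with the intensity-dependent prior the change of 0.57 had an adjusted p of 0.0238. Leaving out any single array left an adjusted p of 0.162 to 0.253 in limma, in fits that called between 0 and 8 of all tested probes. With a single probe in a dim range, the value could not be compared with another probe of the gene. The other genes of subunit joining had small negative values. EIF5B, the GTPase that joins the large subunit, read 1.74 and 1.77 in the control and 1.66 and 1.70 with the mimic (-0.07 ± 0.04; limma adjusted p = 0.346), and EIF6, which keeps free large subunits from joining, gave 5.90 and 5.91 against 5.84 and 5.86 (-0.05 ± 0.04). In both the mimic arrays were the lower ones.

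**Figure D3:**
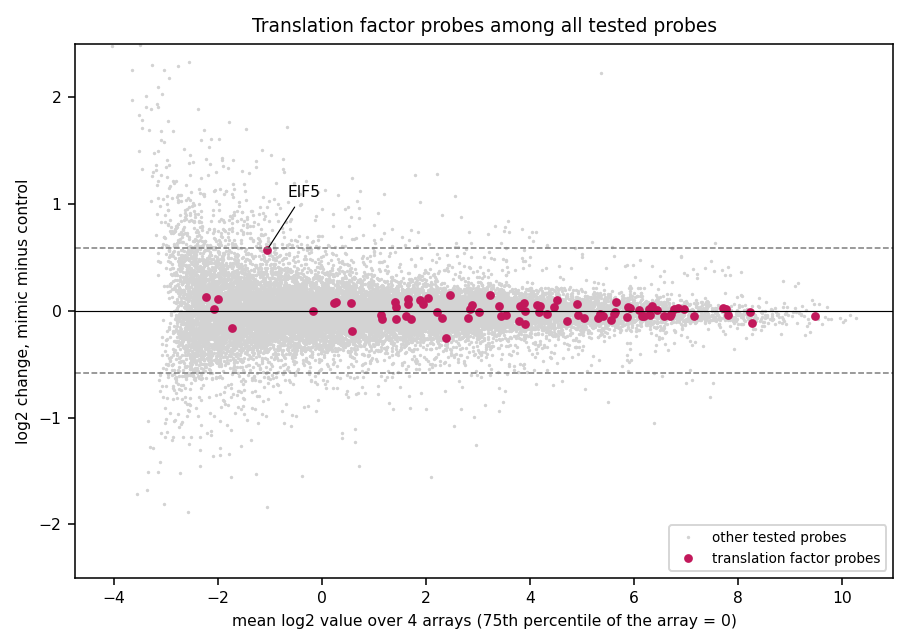
Log2 change (mimic minus control) against the mean log2 value over the 4 arrays for all tested probes (grey) and the translation factor probes (red), with 1.5-fold as dashed lines and 24 other probes beyond the axis limit of 2.5. The translation factor probes lie along 0 over the whole range of signal, and EIF5 lies near the upper dashed line among dim probes, where the spread of all probes is widest.

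Among the 9 elongation genes 7 were negative, and the median was -0.03. EEF1A1, whose protein carries aminoacyl-tRNA to the ribosome, was measured by 6 probes with changes from -0.11 to 0.08. The brightest read 9.52 and 9.49 in the control and 9.42 and 9.49 with the mimic. That is a change of -0.05 ± 0.04 on the probe with the strongest signal, and the median over the 6 probes was 0.02, so no direction holds for the gene, which also has many processed pseudogenes. EEF1A2, its muscle and nerve counterpart, read 2.57 and 2.44 in the control and 2.32 and 2.18 with the mimic. The mimic arrays were the lower pair, with a change of -0.25 ± 0.08 (limma adjusted p = 0.172, and 0.0303 with the intensity-dependent prior). EEF2, the translocase, read 6.25 and 6.21 against 6.19 and 6.18 (-0.04 ± 0.04; limma adjusted p = 0.526). EEF2K, the kinase that inactivates eEF2, read -1.71 and -1.57 in the control and -1.81 and -1.80 with the mimic. Its mimic arrays were both lower (-0.16 ± 0.06; limma adjusted p = 0.217). With the intensity-dependent prior the change of this dim probe was -0.16 ± 0.15 (limma adjusted p = 0.494). With normexp it was -0.05 ± 0.05 (limma adjusted p = 0.515), and spike-in scaling, which moved all values down, gave -0.35 (limma adjusted p = 0.0265). EEF1E1, an aminoacyl-tRNA synthetase scaffold protein in spite of its name, stood highest of the group, at 0.12 ± 0.05 and 0.11 ± 0.08 on its 2 probes.

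Where a gene had several probes, they served as a check within the gene. For the 17 genes with more than 1 tested probe, the changes of the probes lay a median of 0.09 apart and at most 0.19 apart (EEF1A1). In 11 of the 17 the probes differed in sign. The differences between probes of one gene were thus as large as most of the changes themselves. Of the 80 tested probes, 16 cover more than 60 bases of the genome, as probes across a splice junction do. For a probe of EIF4B among them the stretch is only 61 bases. The place of the probes within coding or untranslated sequence was not analysed here.

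The start of the mRNA is a feature of these genes that the choice by name did not use. A C at the first transcribed base followed by at least 4 pyrimidines was found in 10 of the 42 tested member genes in the RefSeq promoter table (GRCh38.p14). The share was 5.14% of all genes in it, tested or not. Among all tested genes in it, 661 had a tract and 8247 had none. A few of them are shown because they belong to the best-known carriers of such tracts or mark the longest and shortest found, and EEF1B2, EIF3F and EIF4B were picked with their values known. Each window starts 10 bases before the annotated start, and capitals mark the tract.
EEF1B2, chr2:206159885-206159914, plus strand: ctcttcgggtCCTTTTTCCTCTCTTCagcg
EIF3F, chr11:7987327-7987356, plus strand: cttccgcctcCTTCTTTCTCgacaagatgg
EEF1A1, chr6:73521013-73521042, minus strand: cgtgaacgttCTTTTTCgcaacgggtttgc
EEF2, chr19:3985444-3985473, minus strand: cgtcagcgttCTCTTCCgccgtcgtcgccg
EIF4B, chr12:53006446-53006475, plus strand: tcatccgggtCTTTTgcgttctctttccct
The 10 genes with a tract had changes from -0.07 to 0.08 with a median of -0.05, and the 32 without had a median of -0.0040. Over all tested genes the medians were -0.02 with and -0.02 without a tract. Of the 10, 8 were negative and 0 passed the test. Of all 661 tested genes with a tract, 55.8% were negative and 1.36% were called. Signs here are those of the brightest probe, and the shares are given with no test. The probes of EEF1A1 ran from -0.11 to 0.08 and those of EIF4B from -0.08 to 0.08. For neither gene do all probes give 1 sign. EEF1B2, a nucleotide exchange factor for eEF1A with the longest tract, read 6.75 and 6.73 in the control and 6.70 and 6.71 with the mimic. The small difference was without overlap (-0.03 ± 0.04; limma adjusted p = 0.65). EIF3F, an eIF3 subunit, had a positive value, with 3.79 and 3.90 in the control and 3.93 and 3.91 with the mimic (0.08 ± 0.06; limma adjusted p = 0.461). In a list of 8 members taken from general knowledge as carriers of such tracts 0 were called, with a median of -0.03 and values from -0.05 (EIF3E) to 0.08 (EIF3F). That list includes EEF1G, where the search found no tract, and EEF1D, EIF3E and EIF3H, which were not in the promoter table. An array of total RNA measures mRNA levels and not their translation.

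The genes that regulate or follow these steps were examined in the same fit, where 2.76% of all genes were called on their brightest probe, and those named were picked for their values. Of 18 kinases, phosphatases and other regulators, 0 were called, with a median of -0.02. The largest value was that of EIF2AK3, which encodes PERK, the endoplasmic reticulum kinase for eIF2 alpha. It read -1.49 and -1.36 in the control and -2.01 and -1.87 with the mimic. The groups were far apart relative to their replicates, with a change of -0.51 ± 0.08, and the limma adjusted p of 0.0737 was short of the threshold. With a single probe in a dim range (mean -1.68), the value could not be compared with another probe of the gene. For the dim probes of EIF5 and EEF2K the intensity-dependent prior raised the standard error from 0.10 to 0.13 and from 0.06 to 0.15. The result of that prior for EIF2AK3 is not reported here, so its ± 0.08 may be too small. EIF2AK1, the heme-regulated kinase of the same family, was at 0.18 ± 0.06 (limma adjusted p = 0.204). Of 9 termination and recycling factors 0 were called on the brightest probe. A dimmer probe of MCTS1 was called, beside 2.62% of all tested probes. It read -2.55 and -2.43 in the control and -1.93 and -1.86 with the mimic (0.60 ± 0.06; limma adjusted p = 0.0475). The brightest MCTS1 probe was at -0.0018 ± 0.04, so the probes disagreed. For ETF1 a dimmer probe was at -0.31 (limma adjusted p = 0.0543) and the brightest at -0.11. DENR, which helps to recycle the small subunit, was well above background on the mimic arrays only. It read -2.58 on both of them and was not well above background on either control array, where it read -2.91 and -3.23. On its own signals the log2 change was 0.49 ± 0.12, with limma's confidence interval from 0.14 to 0.85 (limma adjusted p = 0.133). Against the higher of its own signal and the lowest signal well above background on each control array, the group means differed by 1.39-fold. That is not a lower bound, because the control array at -2.91 lay above its lowest such signal, -2.95, and still was not well above background. The probe was tested only through its signal on the mimic arrays. The 9 mitochondrial translation factors had a median of 0.04, and 0 were called.

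**Figure D4:**
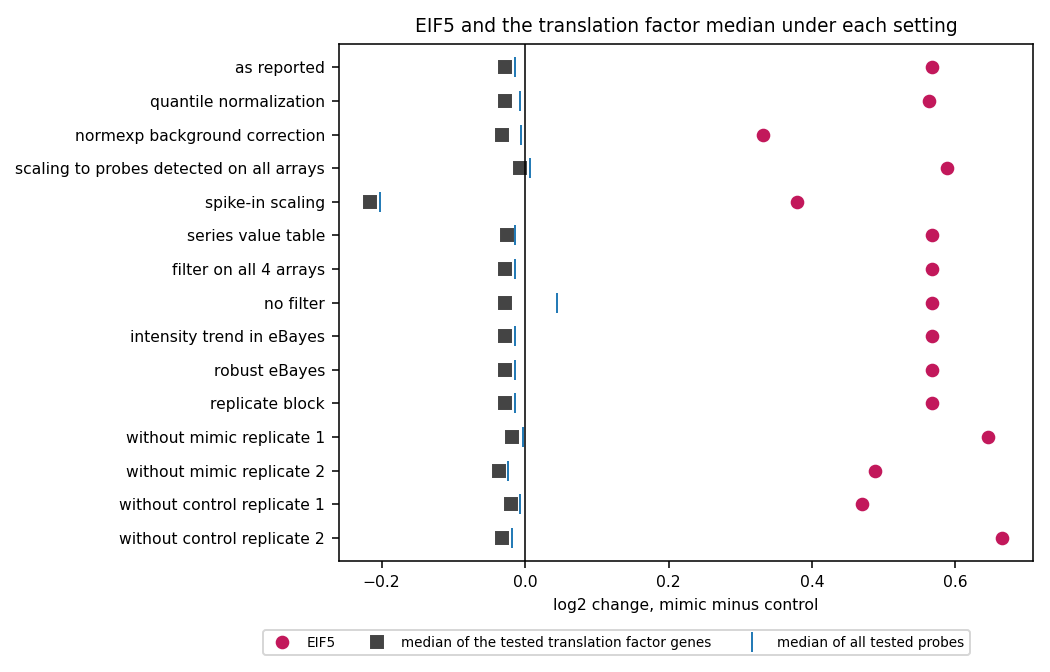
Log2 change (mimic minus control) of EIF5 (red circles), the median over the 52 tested translation factor genes (dark squares) and the median over all tested probes (blue ticks), as reported and under each alternative. EIF5 stays between 0.33 and 0.66, and the median of the translation factors stays next to that of all probes, also where spike-in scaling moves both to about -0.2, except with no filter, where the latter is at 0.04.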

How the data were processed

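RNA from 2 mimic and 2 control samples was labeled with a single dye and hybridized to SurePrint G3 Human GE v2 arrays (Agilent). The authors deposited scanner output of Feature Extraction 10.7.3.1 (10.7 in the submitters' processing notes) for each array, in which the processed signal is an intensity with background subtracted, not normalized between arrays. The deposited value table holds the same intensity, rounded, and was an alternative; 0 of its columns lacked a sample. Flags for control spots, outliers, saturation and signal above background came from the same deposited files. No spot was saturated.

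Outlier spots (356 to 395 per array) were left out, spots of a probe were averaged on log2, and the 75th percentile of each array was subtracted. A probe was well above background where at least 0.5 of its spots were, and was tested when this held on both arrays of at least 1 group. The comparison of mimic with control used limma 3.58.1 under R 4.3.3 (eBayes without trend, no covariates, threshold 0.05 after Benjamini-Hochberg adjustment over 20328 probes). With 2 arrays against 2, an exact two-sided permutation test cannot go below 0.333, and the number of arrays limits the precision. On simulated data the fit recovered 26.5%, 73.3% and 97.4% of probes changed by 1.5-fold, 2-fold and 4-fold. Few probes were changed there and the errors did not follow the signal, so these shares are not the sensitivity for the translation factors.

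Genes were named by a rule: the largest positive and negative change in each complex, plus a list of 22 factors whatever their values, plus any member past the threshold, with probes that disagreed by more than 0.3 or with 1 group below background. The members, the complexes and the lists were chosen with earlier results of these data known. Gene names and hg19 probe positions are those of the array files. Predicted targets of TargetScan were not used here. Figures were drawn with matplotlib 3.10.9.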

Additional observations from a re-analysis of the deposited data

How the results depend on the processing

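In limma, 0 translation factor probes were called when the values were quantile normalized, scaled to probes detected on all arrays, taken from the series value table, filtered on all 4 arrays or fitted with robust eBayes. With no filter 0 probes of the whole array were called, and leaving out 1 array gave 0 to 8, so the 0 among the members there says nothing about them. The cause of the differences below was not tested, except that spike-in scaling shifts all values by a constant. With spike-in scaling 54 probes (40 genes) were called lower and 1 probe (1 gene) higher, and 74 were lower and 1 higher without overlap. The median log2 change was then -0.22 over all member genes, eIF1 and eIF1A, and elongation, -0.23 in eIF2 and eIF2A, eIF4F and the eIF4E binding proteins, -0.21 in eIF3, -0.24 in subunit joining and -0.14 in eIF2B. Of the genes named by the rule, those that turned negative were EEF1E1 (-0.064), EIF1 (-0.17), EIF1AD (-0.14), EIF2A (-0.11), EIF2B4 (-0.13), EIF2B5 (-0.14), EIF3C (-0.17), EIF3G (-0.039), EIF4E3 (-0.17) and EIF4EBP2 (-0.15). With an intensity trend in eBayes 3 probes (1 gene by its brightest probe) were called lower and 3 probes (2 genes) higher, and with normexp 1 probe (1 gene) was called higher. The methods' t-test at unadjusted p gave 3 probes (2 genes) lower and 8 probes (5 genes) higher, where 20.2% of all tested probes passed. Under normexp the medians of eIF2B, eIF3 and elongation were 0.017, -0.037 and -0.012, and EIF2B2 and EIF4E were at 0.0012 and 0.016. Under quantile normalization eIF3 and elongation were at -0.036 and -0.039, EIF3C at -0.018, EIF4E at 0.0016 and EIF4E3 at -0.0062. Scaling to probes detected on all arrays gave medians of -0.0074 over all member genes, 0.070 in eIF2B, -0.0063 in eIF3, -0.019 in eIF4F, -0.034 in subunit joining and -0.0086 in elongation, with EIF2B2, EIF4E and EIF4G1 at 0.014, 0.012 and 0.012. With the median over all tested probes of a gene, the medians were -0.0075 over all member genes, 0.015 in eIF2 and eIF2A, -0.0082 in eIF4F and -0.014 in elongation, and single genes were at 0.020 (EEF1A1), 0.015 (EIF2S2), 0.00072 (EIF4A1), 0.036 (EIF4E) and -0.016 (EIF4EBP2). Over the fits that leave out 1 array the medians ranged from 0.027 to 0.058 in eIF2B, -0.024 to -0.016 in eIF3, -0.069 to 0.017 in the eIF4E binding proteins and -0.040 to -0.023 in elongation, and 25 to 33 probes were higher and 33 to 38 lower without overlap, beside 34.3% to 39.6% and 40.7% to 45.4% of all tested probes. Single genes ranged from -0.059 to 0.00069 (EIF1AX), -0.013 to 0.17 (EIF2A), -0.030 to 0.017 (EIF2B2), -0.055 to 0.037 (EIF4E), -0.039 to 0.075 (EIF4E3) and -0.034 to 0.018 (EIF4G1). With fewer arrays groups are less able to overlap, and 32 probes were higher without mimic replicate 1 and 33 without control replicate 1, against 20 with all arrays. The labels do not pair the samples. Differences between replicates, as numbered here, correlated at 0.03 between the groups. This numbering rests on no known pairing, so the value cannot tell whether replicates shared an effect or whether the samples were paired. With the replicate block limma called 0 probes of the whole array, with EIF5 at an adjusted p of 0.125. Slide and scan could not be fitted as a block, because all arrays shared them. The dim probes of EIF5 and EEF2K had larger standard errors than the median translation factor probe. The 26.5% of changes of 1.5-fold called on simulated data does not apply to them, because the simulated errors did not follow the signal.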
